A study of Mus musculus with 11 samples.

Results

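Gastric tumours with floxed Smad4 were compared with normal stomach epithelium across all autosomal genes measured on Affymetrix arrays, with 8 of the 11 arrays of the series in the comparison. The tumour group, labelled pChePS_GC and called pChePS tumours here, held 4 samples of gastric cancer tissue, labelled as diffuse type, from mice carrying Pdx-1-Cre, Cdh1F/+, Trp53F/F and Smad4F/F; thus 1 of the Cdh1 alleles was floxed, and both alleles of the other genes. The reference group, NGE, consisted of 4 samples of normal stomach epithelium taken from Cre-negative animals (Pdx1-1-Cre-negative in the labels), for which no floxed allele is named. A further group of 3 tumours with floxed Cdh1 and Trp53 on both alleles and no floxed Smad4 (Pdx-1-Cre, Cdh1F/F, Trp53F/F, labelled pCP_GC) is used only where stated. Each gene is represented by 1 probe set, the brightest on average across the 11 arrays among those that name that gene alone, which gave 19938 genes, of which 19103 lie on autosomes and are described. Values are normalized signals on the log2 scale, so that a difference of 1 is 2-fold, and a gene passed when its limma p, adjusted by Benjamini-Hochberg over all genes, was under 0.05.

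Several properties of the groups bear on every comparison. The Pdx1 promoter drives Cre in the endoderm-derived epithelium of the distal stomach, duodenum and pancreas, a model limit, since Cre driven by it acts in epithelium and not in stroma. The normal samples are epithelium and the tumour samples are whole cancer tissue, so a different share of a cell type and a different RNA level within cells cannot be told apart. The labels name neither the age or sex of the mice nor the stomach region, and do not give how many animals each group drew on, so that a p-value reflects the scatter among these particular samples, which may be technical. Xist read 11.54 to 12.66 in NGE and 5.72 to 6.02 in the tumours, and the Y-linked Eif2s3y 4.94 to 5.19 and 9.21 to 11.09, so a difference of sex and a difference between the groups cannot be told apart. The labelled tissue was checked against its markers. Of 6 markers of any epithelium 3 rose and 1 fell. Krt8 read 14.01 to 14.09 in NGE and 13.87 to 14.01 in the tumours, and Krt19 13.50 to 13.63 and 13.19 to 13.61. Epcam, which rose by 0.55, read 11.19 to 11.66 and 11.86 to 12.20. Cldn7 rose by 3.57 and Krt18 by 0.41, and the floxed Cdh1 fell by 3.39. Pit cell markers were bright in NGE, with the mean of 5 at 14.1 on every array. Not all gastric markers were bright there: Gast read 7.92 to 8.11, Hdc 8.36 to 9.06 and Lipf 5.17 to 5.40.

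The stomach lining renews itself from progenitors that give rise to surface mucous cells, acid-secreting parietal cells, enzyme-secreting chief cells and hormone cells. Parietal cells are packed with mitochondria that supply the proton pump with ATP, and surface cells make mucus, bicarbonate and detoxifying enzymes. When the lining is injured, these specialised cells are lost and secretory, repair and defence genes are switched on, while tumours of the diffuse type grow with an abundant stroma.

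Of the 19103 autosomal genes, 3624 (19.0%) were higher and 4463 (23.4%) were lower in the pChePS tumours than in NGE. At least 2-fold, 1348 genes (7.06%) were higher and 644 (3.37%) lower. In 1307 and 627 of these, respectively, the 4 tumour arrays did not overlap with the 4 NGE arrays. Selection by size and adjusted p favours groups that do not overlap, so these counts add no support. The balance shifted with size: 179 genes rose and 72 fell at least 8-fold, but 5 rose and 10 fell at least 32-fold. The 2-fold falls started from a median NGE level of 10.75 and the 2-fold rises from 7.84, beside 8.17 for all autosomal genes. The median autosomal difference was -0.10, and centring each array on its median moved all differences by a further -0.17, after which 2619 genes were higher and 8681 lower (1096 and 897 at least 2-fold). As a guide to background, 1187 autosomal olfactory and vomeronasal receptor genes, which the stomach hardly uses, had a 95th percentile of 7.24 in NGE and 6.99 in the tumours. NGE lay under that level for 342 of the 1348 rises and the tumours for 73 of the 644 falls, so where it is background these changes are lower bounds.

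**Figure D1:**
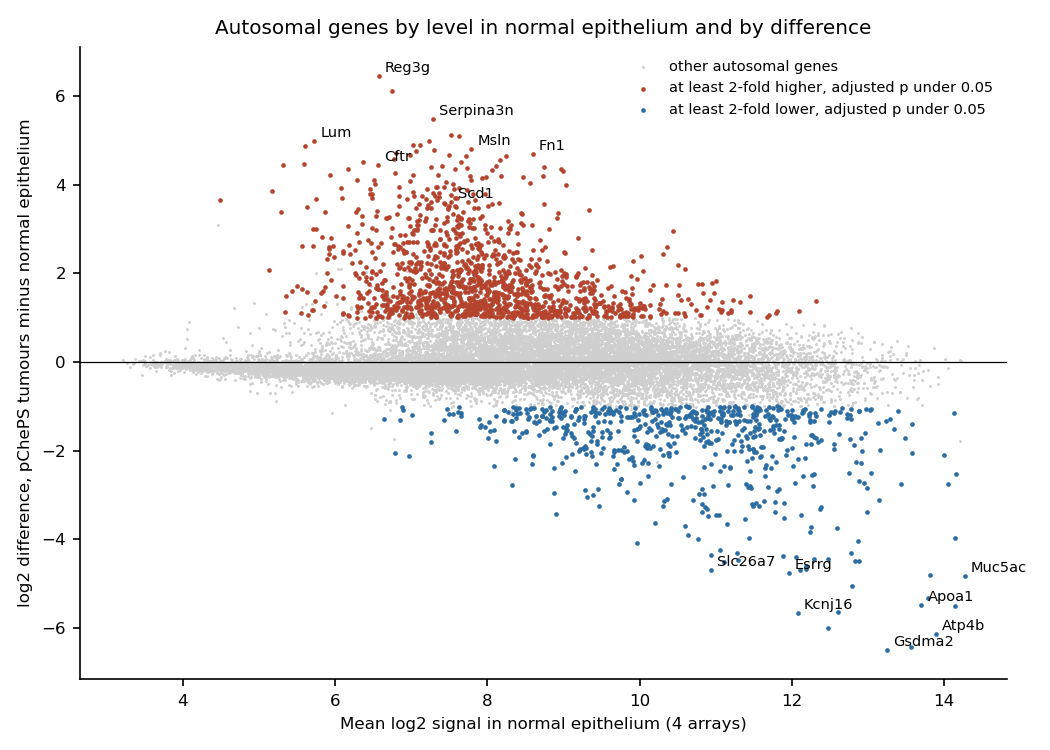
Mean log2 signal of each autosomal gene in the 4 NGE arrays (x axis) against the log2 difference of the 4 pChePS tumours from NGE (y axis); red and blue points are genes at least 2-fold higher or lower with a limma adjusted p under 0.05, and grey points are the others. The 644 falls reach -6.51 among genes bright in NGE, and the 1348 rises reach 6.47 among genes dim in NGE.

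Gsdma2, a gasdermin of epithelia, fell most (-6.51). The 15 largest falls among genes with groups that did not overlap ran from 26.0-fold to 91.4-fold, each with an adjusted p of at most 0.00169. Proton pump, potassium channel and chloride exchanger genes Atp4b, Atp4a, Kcnj16 and Slc26a7 were among them, as were the digestive proteins Chia1, an acidic chitinase, and Pla2g1b, a secreted phospholipase. Apoa1, the main protein of high-density lipoprotein, read 13.57, 13.72, 13.82 and 13.68 in NGE and 8.09, 8.82, 7.71 and 8.23 in the tumours. It fell by 5.48 (SE 0.43, limma adjusted p = 6.46e-06). Mogat1, which makes diacylglycerol from monoacylglycerol, read 12.34, 12.60, 12.77 and 12.70 in NGE and 6.50, 7.81, 6.70 and 6.84 in the tumours and fell by 5.64 (SE 0.43). For both genes the lowest NGE array lay more than 16-fold above the highest tumour array. Smim38, a small membrane protein (-5.07), and Akr1c14, a steroid-reducing aldo-keto reductase (-4.71), fell as well, as did the disulphide isomerase Pdia2 (-6.0) and the nuclear receptor Esrrg (-4.78). The surface proteins Muc5ac, the main mucin of pit cells, and Psca fell (-4.84 and -4.81), with wide spreads between tumours: Muc5ac ran from 7.44 to 11.73 and Psca from 8.02 to 11.25. In 5 of the 15 genes the tumours lay under the receptor level, and genes near the top of the scale in NGE, such as Atp4a at 14.10 to 14.16, may be limited by saturation, which was not tested.

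**Figure D2:**
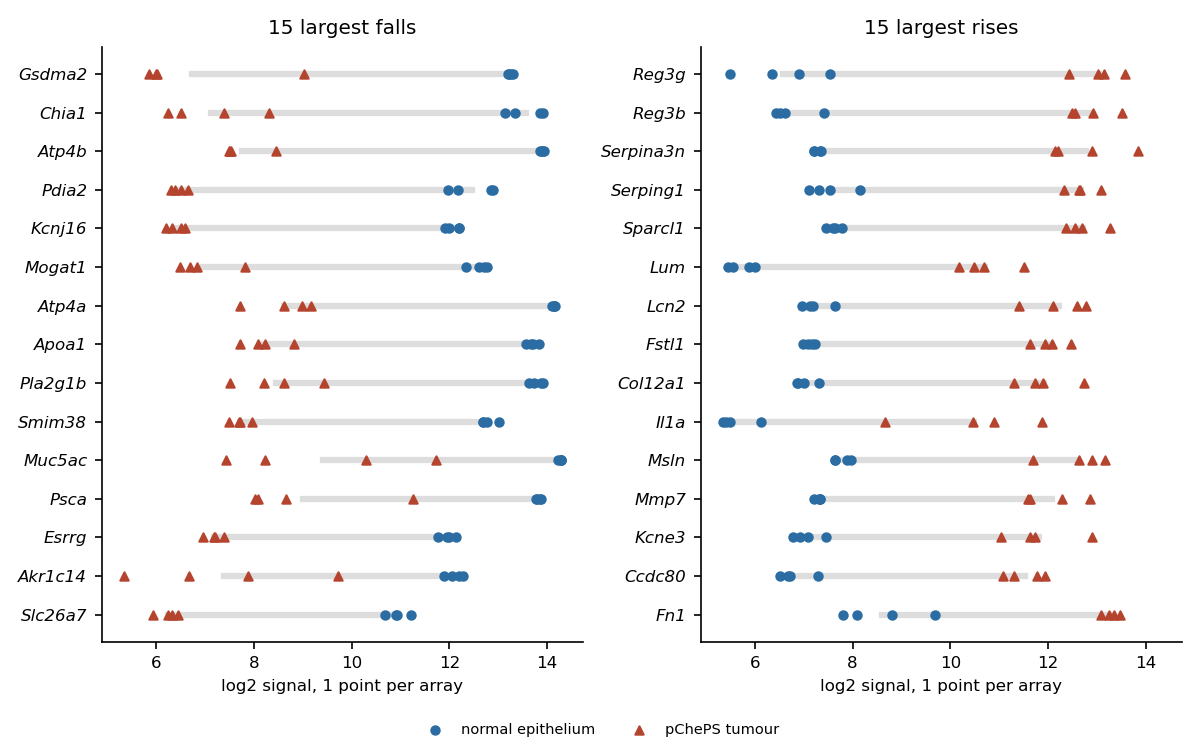
Log2 signal (x axis) of the 15 autosomal genes with the largest falls (left) and the 15 with the largest rises (right) among passing genes whose groups did not overlap, 1 point per array; blue circles are NGE, red triangles pChePS tumours, and grey bars join the group means. Gsdma2 in pChePS tumour 2 stands at 9.03, apart from the other tumours at 5.87 to 6.02.

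Genes of ion transport separated by task. Of 13 genes for acid, potassium and chloride transport 12 fell and none rose, with a median difference of -2.86. Of 13 genes for bicarbonate and surface transport 5 rose and 5 fell, with a median of 0.52. Among those that rose, Cftr, a cyclic AMP-gated chloride and bicarbonate channel, read 6.94, 6.42, 5.87 and 7.05 in NGE and 9.08, 11.20, 11.30 and 12.53 in the tumours. Every tumour exceeded every NGE array, by 4.46 on average (SE 0.58, limma adjusted p = 0.000203), with tumour 1 nearest to NGE. Aqp5, a water channel, rose by 2.0, Car12, a membrane carbonic anhydrase, by 2.10, and the nucleoside transporter Slc28a3 by 2.08. On the falling side were Slc16a7, a pyruvate and lactate carrier (-4.45), Slc5a5, the sodium-iodide symporter (-3.75), and Car9, another membrane carbonic anhydrase (-3.32). Hormone and receptor genes of acid control fell in 11 of 21 cases with no rise: Ghrl, which encodes ghrelin (-4.32), Sst, which encodes somatostatin (-3.38), and the cholecystokinin receptor Cckar (-2.73) led. Beside these lists, all 5 parietal cell markers fell, their mean level being 12.54 to 12.85 in NGE and 7.37 to 8.15 in the tumours, and 3 of 5 gastric endocrine markers fell; their part in the results was not tested.

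Mitochondrial oxidation genes fell together. All 12 measured genes of ketone and branched-chain amino acid breakdown fell, 11 of them at least 2-fold, with a median of -1.37, beside -0.10 over all autosomal genes. Oxct1, which lets cells burn ketone bodies, read 11.64, 12.16, 12.07 and 11.81 in NGE and 9.95, 10.12, 9.22 and 10.04 in the tumours. No tumour reached the NGE arrays, and the mean fell by 2.09 (SE 0.19, limma adjusted p = 1.83e-05). Next in size were Bckdhb, a subunit of the branched-chain ketoacid dehydrogenase (-2.03), Mccc1 of leucine breakdown (-1.52) and Pcca, a subunit of propionyl-CoA carboxylase (-1.46). In fatty acid oxidation 13 of 16 genes fell and none rose, with smaller changes and a median of -0.66, led by Cpt2 (-1.05), which hands long-chain acyl groups to the oxidation enzymes inside mitochondria, and Etfa (-1.03), which carries their electrons. Of 17 citrate cycle genes 12 fell and none rose (median -0.56), led by Sdhb (-1.08) and Ogdh (-1.07). Among 11 nuclear receptors and coactivators that regulate mitochondrial genes, 6 fell and 1 rose. Esrrg, an oestrogen-related receptor of oxidative tissues, read 11.98, 12.13, 11.95 and 11.78 in NGE and 6.96, 7.18, 7.21 and 7.38 in the tumours, the tightest of the 15 largest falls, with a difference of -4.78 (SE 0.16). Its coactivator Ppargc1b (-1.39), its relative Esrrb (-1.31) and the fatty acid sensor Ppara (-1.06) fell too.

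Tnni3, Cox7a1 and Ppp1r3a, best known from striated muscle, were picked out after their values were seen. Tnni3, the cardiac troponin I, read 12.26, 12.07, 12.28 and 12.14 in NGE and 7.25, 7.31, 7.67 and 7.81 in the tumours. It fell by 4.68 (SE 0.16, limma adjusted p = 2.19e-08). Cox7a1, a cytochrome oxidase subunit of muscle, fell by 4.40, and Ppp1r3a, a glycogen-targeting phosphatase subunit, fell by 4.10. In the creatine list, by contrast, Gatm, which makes the precursor of creatine, rose by 4.08 (SE 0.31), while the creatine kinases Ckb and Ckmt1 fell (-1.62 and -0.77).

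Lipid genes did not move in one direction. In the list of fatty acid synthesis and desaturation 5 of 14 genes rose and 4 fell. The 5 that rose all introduce double bonds or lengthen the products. Scd1, which desaturates stearate to oleate, read 7.89, 8.01, 6.80 and 7.41 in NGE and 10.96, 11.58, 11.41 and 10.60 in the tumours, with every tumour above every NGE array and a difference of 3.61 (SE 0.28, limma adjusted p = 6.17e-06). Elovl5, an elongase of polyunsaturated acids, rose by 3.14 (SE 0.13), and the desaturases Fads2, Fads1 and Scd2 by 3.01, 2.92 and 2.11. Acacb, the acetyl-CoA carboxylase at mitochondria, fell by 3.25 (SE 0.18), and the elongase Elovl7 fell by 1.66. Of 12 sterol synthesis genes 8 fell and none rose, led by Hmgcs1 (-1.36) and Idi1 (-1.31), both of the mevalonate route. Genes of lipid uptake and packaging, chosen after their values were seen, included falls of Apoa4 (-3.52), lipoprotein lipase Lpl (-2.87) and the triglyceride-forming Dgat1 (-1.11). Rises in the same group were Apoe, an apolipoprotein, by 2.96 and Plin2, a lipid droplet coat protein, by 2.54. Plin2 read 8.79, 8.71, 8.65 and 8.70 in NGE and 11.31, 11.11, 11.51 and 11.09 in the tumours, so neither group spread over more than 1 log2 unit and the groups lay far apart.

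**Figure D3:**
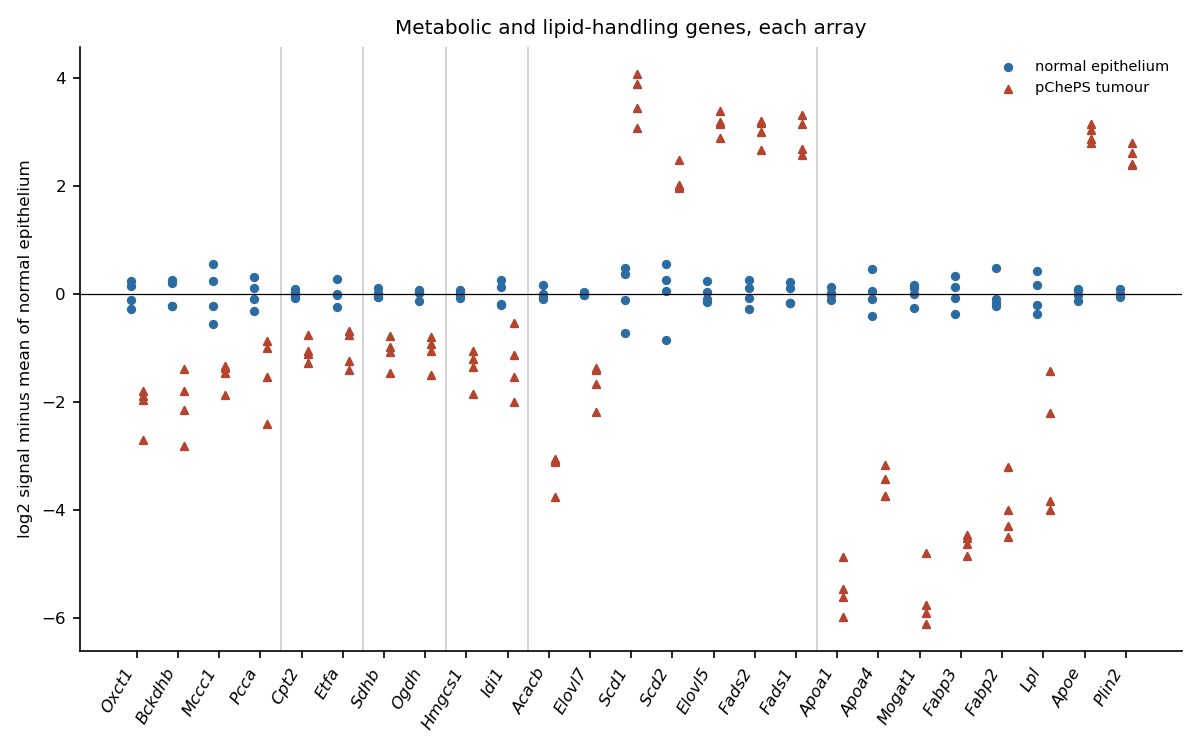
Log2 signal of each array minus the mean of the 4 NGE arrays (y axis) for genes of, from left to right, ketone and branched-chain breakdown, fatty acid oxidation, the citrate cycle, sterol synthesis, fatty acid synthesis and lipid handling; blue circles are NGE arrays and red triangles pChePS tumours. Oxct1 to Idi1 and Acacb and Elovl7 lie below NGE in every tumour, while Scd1 to Fads1, Apoe and Plin2 lie above it.

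Detoxifying enzymes, a trait of the gastric surface, fell in part. Of 20 conjugating enzymes and oxidoreductases 12 fell and 1 rose, and of 12 alcohol and aldehyde dehydrogenases 5 fell and 2 rose; without NGE replicate 1, 3 or 4 the 12 falls became 7. Those that fell included Aldh3a1, an aldehyde dehydrogenase of exposed epithelia (-2.55), Adh7, the stomach alcohol dehydrogenase (-2.52), Ephx2, a soluble epoxide hydrolase (-2.04), and Cyp2c65, a cytochrome P450 (-2.01). Mgst1, a microsomal glutathione transferase, rose by 1.62. In retinoid metabolism 7 of 18 genes rose and 4 fell. Aldh1a3, which makes retinoic acid, read 7.73, 7.52, 7.70 and 7.52 in NGE and 12.09, 10.81, 9.16 and 10.62 in the tumours, above NGE in all 4 tumours, by 3.05 on average (SE 0.47). Stra6, a retinol uptake receptor, rose by 2.67 and Aldh1a2, another retinoic acid-forming enzyme, by 2.35, whereas Dhrs9, a retinol-oxidising dehydrogenase, fell by 2.98. Surface (pit) cell markers fell in 4 of 5 cases, with a mean level of 14.08 to 14.12 in NGE and 9.52 to 12.67 in the tumours, and their part in these lists was not tested.

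Genes of protein folding in the secretory pathway fell or did not pass. Of 14 disulphide isomerases and oxidases 6 fell and none rose, led by Pdia2 (-6.0), a pancreas-type isomerase, and of 19 chaperones and stress regulators 8 fell and none rose, all by less than 2-fold. Bhlha15, the transcription factor Mist1 of zymogenic cells, fell by 0.85. In polarised trafficking 11 of 24 genes fell and 3 rose, led by Sytl2 (-2.81), a Rab27 effector, and the myosin Myo5c (-1.71); without NGE replicate 1 or 4, or pChePS_GC replicate 3, 7 fell. Of 26 glycosyltransferases 10 fell and 4 rose. B4galnt2, which makes the Sda and Cad antigens, read 11.32, 11.47, 11.48 and 11.47 in NGE and 6.48, 6.47, 6.74 and 10.10 in the tumours, near NGE in tumour 4 and far below it in the other 3 tumours. The fucosyltransferases Fut9 and Fut4 fell (-3.01 and -2.57), while St6gal1, which adds alpha-2,6 sialic acid, rose by 2.16. In the trefoil, gastrokine and surface list 7 of 13 genes fell, such as Gkn1 (-2.76) and Mucl3 (-2.10), and 2 rose. Mucous neck cell markers rose in 3 of 5 cases, Wfdc2 by 3.44, Aqp5 by 2.0 and Gkn3 by 1.82, and fell in 1 (Tff2, -0.49). Their mean level was 11.2 to 11.6 in NGE and 11.8 to 13.2 in the tumours. Chief cell markers, of cells rich in this pathway, fell in 5 of 5 cases, with a mean level of 10.23 to 10.73 in NGE and 7.09 to 8.16 in the tumours. Among them Lipf (-0.40) lay under the receptor level in both groups, with means of 5.31 and 4.91. It did not pass after quantile normalization (limma adjusted p up to 0.0565). The part of these markers in these lists was not tested.

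Gasdermins, which form membrane pores, fell in 6 of 8 measured genes and rose in 1; without NGE replicate 1, 3 of them fell. Gsdma2 read 13.19, 13.22, 13.30 and 13.26 in NGE and 6.0, 9.03, 6.02 and 5.87 in the tumours. Tumour 2 stood well above the other tumours but below every NGE array (-6.51, SE 0.91, limma adjusted p = 0.000332). Gsdma fell by 1.33, and the close paralogues Gsdmc2 and Gsdmc4 fell with overlapping groups (-3.19 and -3.14). Gsdmd, the pore of inflammasome-driven death, rose by 1.03 (SE 0.19). In the junction list 9 of 29 genes rose and 6 fell: the claudins Cldn7 and Cldn4 rose by 3.57 and 3.25 and Cldn8 fell by 1.61. Cldn7 read 7.83, 7.95, 7.89 and 8.59 in NGE and 11.80, 11.50, 11.65 and 11.60 in the tumours, beside the adherens junction gene Cdh1, floxed on 1 allele, at 12.94 to 13.02 and 8.73 to 11.07; whether its probe set lies in the floxed exons is unknown.

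The largest rises were in secreted defence proteins, matrix proteins and enzymes that act outside the cell. The 15 largest ran from 25.8-fold to 88.5-fold, each with an adjusted p of at most 0.000486, and in 9 of them NGE lay under the receptor level. Among 22 secreted host defence genes 16 rose and 2 fell, with a median of 2.32. Reg3g, a lectin that kills Gram-positive bacteria, read 6.90, 5.50, 7.55 and 6.35 in NGE and 13.03, 12.42, 13.14 and 13.57 in the tumours. Reg3b, a related lectin on the same chromosome, read 6.52, 6.43, 7.43 and 6.63 in NGE and 12.48, 12.55, 12.91 and 13.52 in the tumours. Their differences were 6.47 (SE 0.89) and 6.11 (SE 0.74), with no overlap. Lcn2, which binds bacterial iron carriers, rose by 4.98 (SE 0.36), and Reg1, another member of the Reg family, by 4.66. Il1a, an alarm cytokine of epithelium, rose by 4.87, Mmp7, an epithelial metalloproteinase, by 4.79, and Kcne3, a subunit of potassium channels, by 4.76. Msln, mesothelin, read 7.97, 7.65, 7.89 and 7.65 in NGE and 13.17, 12.89, 12.62 and 11.70 in the tumours; it was the only riser of 4 mesothelium markers.

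Because Reg3g and Reg3b moved together, the 120 bases before their starts are shown (RefSeq, build GRCm38.p6), beside those of Mmp7 and of Chia1, which fell by 6.44. Capitals mark TATAAA between 45 and 16 bases before the start and TGANTCA, the AP-1 site.
Reg3g, chr6:78468875-78468994, minus strand: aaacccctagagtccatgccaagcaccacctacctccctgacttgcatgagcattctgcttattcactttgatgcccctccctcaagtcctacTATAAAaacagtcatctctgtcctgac
Reg3b, chr6:78370765-78370884, plus strand: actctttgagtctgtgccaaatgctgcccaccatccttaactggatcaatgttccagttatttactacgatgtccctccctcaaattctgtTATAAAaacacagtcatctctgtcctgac
Mmp7, chr9:7691970-7692089, plus strand: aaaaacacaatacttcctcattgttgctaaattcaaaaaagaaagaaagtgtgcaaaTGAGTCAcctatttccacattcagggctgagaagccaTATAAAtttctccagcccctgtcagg
Chia1, chr3:106113262-106113381, plus strand: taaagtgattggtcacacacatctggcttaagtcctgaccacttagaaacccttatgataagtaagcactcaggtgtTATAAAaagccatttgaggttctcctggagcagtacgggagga
All 4 hold TATAAA, at 27, 29, 26 and 43 bases before the start, and Mmp7 also holds an AP-1 site. Of the 30 largest changes, 18 have a promoter in the RefSeq table used here, and 5 of those hold TATAAA in that window. The 4 shown are among those 5, so the fact that all 4 hold it adds no support. Over 14958 autosomal promoters of 300 bases (250 before and 50 after the start) the share with TATAAA there was 2.71%, beside 8.63% of 139 promoters among the 200 largest rises and 8.90% of 146 among the 200 largest falls; this motif was chosen after the sequences were seen. TGANTCA, searched on both strands in the whole window as were the motifs that follow, stood in 6.96%, 11.5% and 8.22%. AAGGTCA, a site of oestrogen-related receptors, stood in 3.78%, 2.88% and 3.42%, and GGAATG, a TEAD site, in 13.1%, 12.2% and 17.8%. The site AGATAA of GATA factors stood in 9.45%, 7.91% and 11.6%, and GTCTAGAC, a Smad palindrome, in 36 of the 14958, 0 of the 139 and 1 of the 146. These are descriptions of letters, with no test.

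Complement and coagulation genes rose. Of 15 complement genes 12 rose and 1 fell, all 12 at least 2-fold (median 2.65), and of 15 coagulation and fibrinolysis genes 14 rose, also all at least 2-fold (median 2.13). Serping1, which inhibits the first complement proteases, rose by 5.14, C1qb of the first complement component by 4.11, and the receptor C3ar1 by 4.11. F3, the tissue factor that starts clotting, read 8.74, 8.60, 7.99 and 9.04 in NGE and 11.76, 11.52, 11.74 and 11.71 in the tumours. Its tumour arrays lay close to each other and above every NGE array, with a difference of 3.09 (SE 0.22, limma adjusted p = 3.64e-06). Plat, a plasminogen activator, rose by 3.66, and F2r, the thrombin receptor, by 3.61. Inhibitors of the Serpina3 and Serpinb type rose in 3 of 9 genes and fell in 1: Serpina3n rose by 5.49 and Serpinb6b by 3.76, whereas Serpinb8 fell by 1.95. Of the annexins, which bind membranes in the presence of calcium, 7 of 12 rose and 1 fell, led by Anxa8 (3.47) and Anxa1 (2.81), and of 13 S100 genes 5 rose and 1 fell, led by S100a8 (2.38).

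Matrix assembly genes rose along several steps. Elastic fibre and microfibril genes rose in 11 of 15 cases with none falling (median 1.72), led by Mfap5 (3.96), Efemp1 (3.96) and Fbln2 (3.0). Collagen maturation genes rose in 14 of 19 cases and fell in 2 (median 1.27). Lox, which cross-links collagen and elastin, read 7.58, 7.91, 7.20 and 7.60 in NGE and 11.81, 11.82, 12.64 and 11.46 in the tumours, higher in every tumour, by 4.36 (SE 0.34, limma adjusted p = 6.99e-06). Plod2, a lysyl hydroxylase, rose by 3.19, and Bmp1, which trims procollagen ends, by 2.59. Hyaluronan and proteoglycan genes rose in 12 of 21 cases and fell in 2: the hyaluronan receptor Cd44 by 4.18, versican, Vcan, by 3.26 and the synthase Has2 by 2.44. Sparcl1, Lum, Fstl1, Col12a1, Ccdc80 and Fn1, all matrix or matrix-associated secreted proteins, were among the 15 largest rises, from 4.69 for Fn1 to 5.10 for Sparcl1. Beside these lists, 6 of 6 fibroblast markers rose (mean level 7.80 to 8.09 in NGE and 10.94 to 11.99 in the tumours), as did 5 of 5 endothelial and 5 of 5 pericyte markers; their part in the results was not tested.

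Of 28 contractile and actin cross-linking genes 18 rose and 3 fell, led by Acta2, smooth muscle actin (4.04), the filament protein Vim (3.99), Cald1 (3.81) and Cnn2 (3.80). Smooth muscle markers rose in 4 of 5 cases, their mean level being 7.78 to 7.89 in NGE and 8.27 to 11.76 in the tumours, which was not tested as a part of these rises. Semaphorins, plexins and neuropilins rose in 12 of 25 cases and fell in 4, and without NGE replicate 1 or 4 the falls were 2. Nrp1, a co-receptor for semaphorins and VEGF, read 6.89, 7.09, 7.03 and 7.08 in NGE and 9.55, 10.30, 10.11 and 9.72 in the tumours, with no overlap and a difference of 2.89 (SE 0.24). Sema6d rose by 2.05 and Nrp2 by 2.03. Among ephrins, Eph receptors, slits and netrins 10 of 27 rose and 5 fell (2 without NGE replicate 3, and 3 without NGE replicate 1 or 4), with the secreted guidance proteins Slit3 and Slit2 at 3.0 and 2.47 and the receptor Epha3 at 2.71.

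Transcription factor genes were counted in lists by tissue and role. Of 26 factors of gastric and endoderm epithelium 6 rose, 9 fell and 11 did not pass, beside 19.0% higher and 23.4% lower among all autosomal genes. Onecut2, a liver and pancreas-type homeodomain factor, read 7.92, 7.91, 7.93 and 8.29 in NGE and 11.75, 11.94, 11.31 and 11.12 in the tumours, a rise of 3.52 (SE 0.19, limma adjusted p = 6.56e-07) with no overlap. Ehf, an epithelial ETS factor, rose by 1.75 and the antral factor Nkx6-3 by 1.61, while Klf4, a factor of differentiated surface epithelium, fell by 1.98. Of 31 mesenchymal and vascular factors 13 rose, 1 fell and 17 did not pass (8 rose without NGE replicate 3), led by Prrx1 (2.88) and the E-box repressors Zeb2 (2.70) and Zeb1 (2.05). Of 34 factors of injury and inflammation 16 rose, 2 fell and 16 did not pass, led by Sox4 (2.43), the myeloid factor Spi1 (1.83), Ets1 (1.60) and the NF-kappaB subunit Rel (1.44). Of 28 Hox genes 24 did not pass, 1 rose (Hoxa5, 0.72) and 3 fell, with differences down to -0.30, and the 3 falls became 0 to 8 when single arrays were left out.

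The miR-200 family is known to repress Zeb1 and Zeb2 through their seeds, bases 2 to 8 of the mature RNA, so its sequences are shown with the seed in capitals (RefSeq, build GRCm38.p6, all on the minus strand); these genes were chosen after their values were seen.
mmu-miR-200b-3p, chr4:156055685-156055706: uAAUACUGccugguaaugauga
mmu-miR-200c-3p, chr6:124718324-124718346: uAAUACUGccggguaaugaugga
mmu-miR-200a-3p, chr4:156054911-156054932: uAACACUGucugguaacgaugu
mmu-miR-141-3p, chr6:124717917-124717938: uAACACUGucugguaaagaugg
The first pair and the second pair each share a seed, and both pairs split between chromosomes 4 and 6. The probe sets on chromosome 4 fell and those on chromosome 6 did not pass. Mir200c and Mir141 on chromosome 6 lay under the receptor level in both groups. Their means were 6.58 and 5.70 in NGE and 6.41 and 5.72 in the tumours. A fall could go unseen there, so the chromosomes cannot be compared. Mir200b read 7.53, 7.79, 8.51 and 8.04 in NGE and 7.44, 6.02, 5.84 and 6.72 in the tumours. Tumour 1 lay just below the NGE arrays, and the mean fell by 1.46 (SE 0.38, limma adjusted p = 0.0123). Mir200a fell by 0.67 (adjusted p = 0.00961). Mir200c differed by -0.16 (95% interval -0.54 to 0.22, adjusted p = 0.455) and Mir141 by 0.02 (95% interval -0.28 to 0.32, adjusted p = 0.911). Over all 258 autosomal miRNA genes 76 fell (29.5%) and 1 rose, beside 23.4% lower and 19.0% higher among all autosomal genes. Of the miRNA genes 1 fell at least 2-fold, and 170 lay under the receptor level in NGE. The arrays were hybridised with total RNA, and whether these probe sets see the mature RNA was not tested. Zeb2 read 6.65, 6.58, 6.52 and 6.67 in NGE and 9.13, 9.28, 9.58 and 9.22 in the tumours. Zeb1 read 7.66, 7.24, 7.60 and 7.63 in NGE and 8.87, 9.78, 10.43 and 9.25 in the tumours. For both factors every tumour lay above every NGE array.

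Signalling genes of repair rose more often than they fell. Of 30 growth factor genes 14 rose and 2 fell, led by the EGF-type ligand Ereg (2.26), Fgf2 (2.21), Hgf (2.01) and Fgf10 (1.86). Feedback inhibitors of MAP kinase and cytokine signalling rose in 9 of 22 cases, such as Socs3 (1.34) and Spred1 (1.21), while Cish fell by 1.23. In the eicosanoid list 8 of 21 rose and 4 fell (2 without NGE replicate 1 or 4, or pChePS_GC replicate 1). Ptgs2, the inducible cyclooxygenase, read 7.55, 7.71, 7.41 and 7.43 in NGE and 10.16, 9.95, 12.78 and 12.34 in the tumours. Tumours 3 and 4 stood more than 2 log2 units above tumours 1 and 2, and all were above NGE, a difference of 3.78 (SE 0.69, limma adjusted p = 0.00176). Ptges, the next enzyme towards prostaglandin E2, rose by 2.62, Pla2g7, which degrades platelet-activating factor, rose by 4.58, and Hpgd, which inactivates prostaglandins, fell by 2.50. Of 11 NADPH oxidase and nitric oxide synthase genes 5 rose and 1 fell, led by Nox4 (2.65) and Noxo1 (2.22).

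Phagocyte genes rose widely. Lysosomal and scavenger genes rose in 19 of 29 cases and fell in 1 (median 1.35): Ctss, a protease of antigen-presenting cells, rose by 3.91, and Cd36, a fatty acid transporter that also serves as a scavenger receptor, fell by 3.26. Fc receptors and signalling partners rose in 18 of 26 cases with none falling (median 1.56), led by Cd53 (3.95) and the inhibitory receptor Fcgr2b (3.34). C-type lectins and Siglecs rose in 9 of 23 cases, led by Colec12 (3.22) and Clec4n (2.45). Interferon-induced GTPase and antigen processing genes moved little: 6 of 19 rose and 2 fell, with a median of 0.16, and without NGE replicate 3 or 4 none rose. Macrophage markers rose in 6 of 6 cases (mean level 7.39 to 7.70 in NGE and 10.74 to 11.33 in the tumours) and neutrophil markers in 4 of 6, with 1 falling (Mpo, -0.26). Of 6 T and natural killer cell markers none rose and 1 fell (Cd8a, -0.31), which did not pass in limma when any 1 of the NGE or pChePS arrays was left out (adjusted p up to 0.0879); the part of these markers in these lists was not tested.

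Proliferation genes rose. Of 30 cell cycle genes 22 rose and 1 fell (median 1.10), and of 23 replication genes 18 rose (median 0.81). Cdk6, a G1 kinase, rose by 2.49, and the mitotic checkpoint genes Bub1 and Mad2l1 by 2.25 and 1.81, beside Mcm7 of the replicative helicase at 1.05. Cytoplasmic ribosomal protein genes rose in 16 of 21 cases, none by 2-fold, with a median of 0.46, and Rpl13 read 11.08, 11.11, 11.09 and 11.16 in NGE and 12.03, 11.91, 11.69 and 11.65 in the tumours. Amino acid transporter genes rose in 10 of 21 cases and fell in 6: Slc1a1, a glutamate carrier, rose by 2.64, and Slc7a8, an exchanger of neutral amino acids, fell by 2.73. In arginine, polyamine and one-carbon metabolism 7 of 20 rose and 4 fell. Arg1, which splits arginine, rose by 3.08. Gldc, the glycine decarboxylase, read 10.68, 11.04, 10.58 and 10.82 in NGE and 7.91, 8.07, 7.50 and 7.73 in the tumours and fell by 2.98 (SE 0.14). Metal and oxidant genes rose in 9 of 24 cases and fell in 5. The plasma-type iron and copper proteins Trf, transferrin, and Cp, ceruloplasmin, rose by 4.43 and 4.02. The quinone reductase Nqo1 and the iron hormone Hamp fell (-3.12 and -2.04). Hamp lay under the receptor level in both groups, with means of 6.78 in NGE and 4.74 in the tumours.

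**Figure D4:**
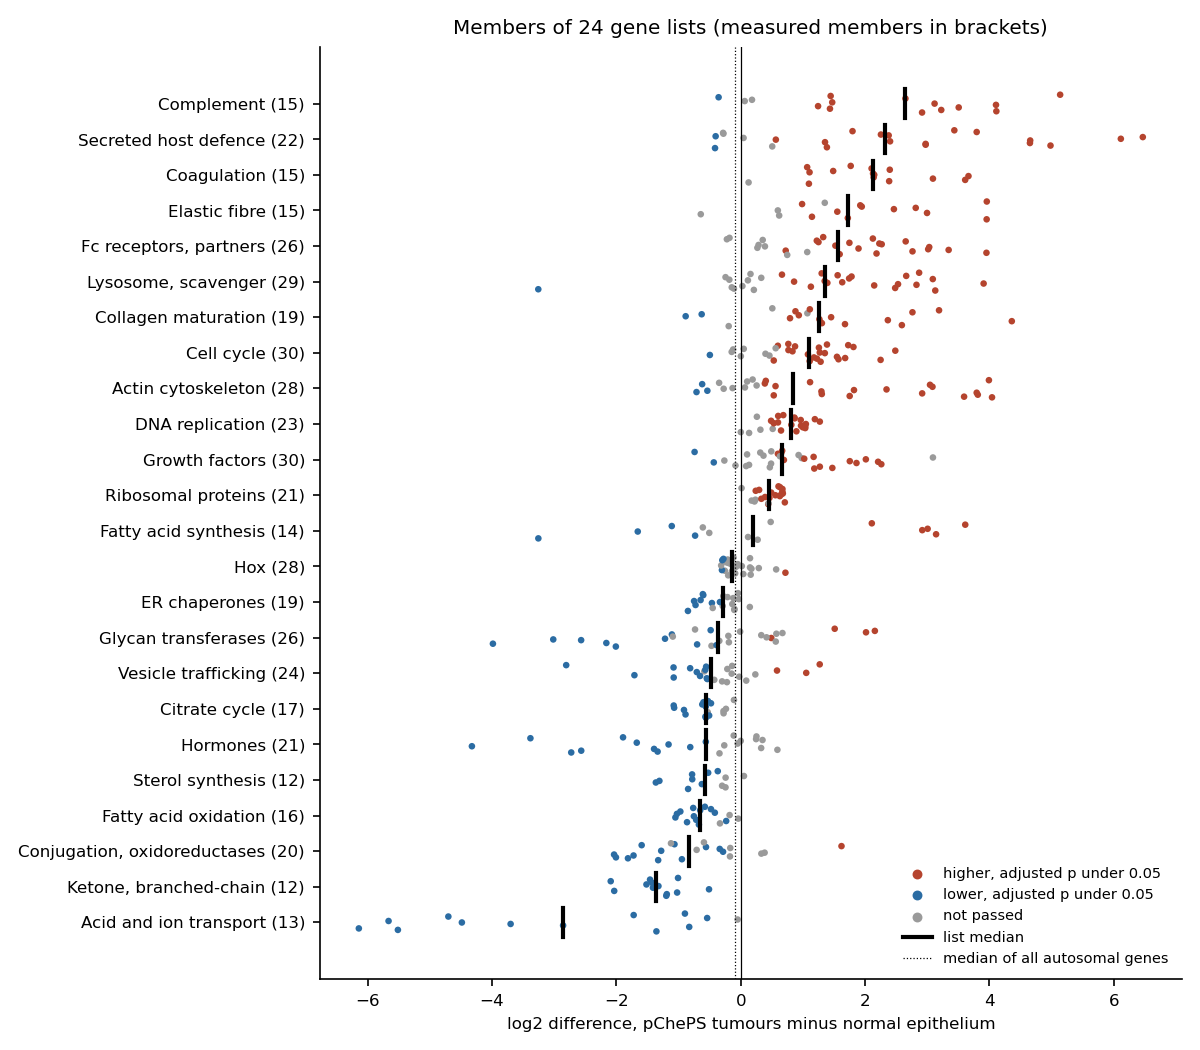
Log2 difference of the pChePS tumours from NGE (x axis) for every measured autosomal member of 24 gene lists (rows, with the number of members), 1 point per gene; red points rose and blue points fell with a limma adjusted p under 0.05, grey points did not pass, black bars are list medians and the dotted line is the median of all autosomal genes, -0.10. Medians run from -2.86 for acid and ion transport to 2.65 for complement.

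Gene families defined by their symbols alone (333 stems with at least 8 measured members) were ranked by the share of members that passed at 2-fold. Over all autosomal genes that share was 7.06% upwards and 3.37% downwards. The families named are the extremes of the ranking, with no test. Upwards, the Csf stem of colony-stimulating factors and receptors led with 5 of 8, then the integrin alpha chains (Itga) with 6 of 12, antibody kappa segments (Igkv) with 4 of 8, and CXC chemokines (Cxcl) with 5 of 13. Glutathione peroxidases (Gpx), small heat shock proteins (Hspb) and the Tnfaip stem each had 3 of 8, and the metalloproteinases (Mmp) 8 of 22. Members of these stems also fell, all by less than 2-fold: 1 Gpx, 2 Hspb, 1 Tnfaip and 2 Mmp genes. Itga2, a collagen-binding integrin chain, read 7.69, 7.61, 7.86 and 7.47 in NGE and 12.39, 12.15, 11.78 and 12.35 in the tumours. It rose by 4.51 (SE 0.21, limma adjusted p = 2.35e-07) without overlap, with Itga5, which binds fibronectin, at 3.30 and Itga1 at 3.09. Csf1r, the macrophage growth factor receptor, rose by 2.95, Gpx3 by 3.69, Hspb1 by 2.70, Tnfaip2 by 3.58 and Mmp2, a gelatinase, by 4.35. Igkv5-43 rose by 3.67, with tumours 1 to 4 at 5.35, 10.49, 8.0 and 8.79.

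Downwards, beside 3.37% of all autosomal genes, the fatty acid-binding proteins (Fabp) led, with 5 of 9 lower at least 2-fold and none higher. Fabp3, the heart-type protein, read 11.81, 12.50, 12.31 and 12.09 in NGE and 7.33, 7.66, 7.71 and 7.56 in the tumours. The groups were more than 4 log2 units apart (-4.61, SE 0.20, limma adjusted p = 1.48e-07). Fabp2 and Fabp1, the intestinal and liver types, fell as well (-4.0 and -2.40), as did Fabp5 (-1.85), while Fabp4 of adipocytes differed by 0.66 without passing (adjusted p = 0.170). The Smad genes, which carry TGF-beta and BMP signals, followed with 3 of 8: Smad9 (-1.47) and the inhibitory Smad6 (-1.23) and Smad7 (-1.07) fell, while Smad3 and Smad5 rose by 0.60 and 0.84. Smad7 read 10.25, 10.29, 10.29 and 10.31 in NGE and 9.43, 9.28, 9.49 and 8.66 in the tumours, with every tumour below every NGE array, and floxed Smad4 read 11.05 to 11.16 in NGE and 10.17 to 11.02 in the tumours. Whether its probe set lies in the floxed exons is unknown too, so the levels of Smad4 and Cdh1 do not check the deletions, and the other floxed gene is not analysed here. The aldehyde dehydrogenases (Aldh) had 6 of 21 lower and 3 of 21 higher. The calpains (Capn), the Lypd stem and the Slc26 anion exchangers had 3 of 11 each, and 1 calpain rose by less than 2-fold. The carboxylesterases (Ces) had 4 of 16 and the galectins (Lgals) 2 of 9, with 1 of 9 higher. Of the 2 galectins that fell at least 2-fold, Lgals2 did not pass without pChePS replicate 1 or any 1 of the NGE arrays. Lgals12 did not pass without pChePS replicate 1 or NGE replicate 1, 3 or 4 (limma adjusted p up to 0.0651). Lgals9 fell by less than 2-fold (-0.82, limma adjusted p = 0.00172). Capn9 and Capn8, calpains of the gastric surface, fell (-4.38 and -3.72), as did Lypd6 (-3.09) and Ces2b (-3.20). Close copies such as the Ces1, Gsdmc, Igkv and Csf2rb genes may share probes, which was not tested.

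The 4 tumours were not alike. Tumour 1 was nearest to NGE for 604 of the 1348 genes that rose at least 2-fold and tumour 2 for 167, and tumour 3 was farthest for 557. Among the 644 falls the tumour nearest to NGE was tumour 2 for 191 genes, tumour 1 for 154 and tumour 3 for 126, and the farthest was tumour 1 for 224 genes and tumour 3 for 206. The 6 passing genes with the largest SD among tumours were Gsdmc2, Cxcl2, Ccl3, Lgals2, Clca3b and Cxcl13. Cxcl2 and Ccl3, chemokines for neutrophils and monocytes, were split in the same way: Cxcl2 read 6.06, 6.27, 6.68 and 6.43 in NGE and 7.66, 7.27, 11.89 and 11.78 in the tumours, and Ccl3 read 6.97, 6.53, 6.84 and 6.88 in NGE and 8.10, 8.19, 11.96 and 12.35 in the tumours. Tumours 3 and 4 were high, and tumours 1 and 2 lay nearer to NGE but above every NGE array. Cxcl13, a B cell attractant, read 6.64, 6.48, 6.04 and 6.69 in NGE and 7.0, 11.72, 11.28 and 11.48 in the tumours, with tumour 1 close to NGE. Clca3b, a secreted protein of the chloride channel accessory type, ran from 7.92 to 13.55 and Lgals2, a galectin of the surface, from 7.32 to 12.49. Of these genes, Gsdmc2 (adjusted p up to 0.0755), Cxcl2 (up to 0.0806), Lgals2 (up to 0.0703), Cxcl13 (up to 0.0640) and Clca3b (up to 0.0559) did not pass in limma without some single arrays.

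**Figure D5:**
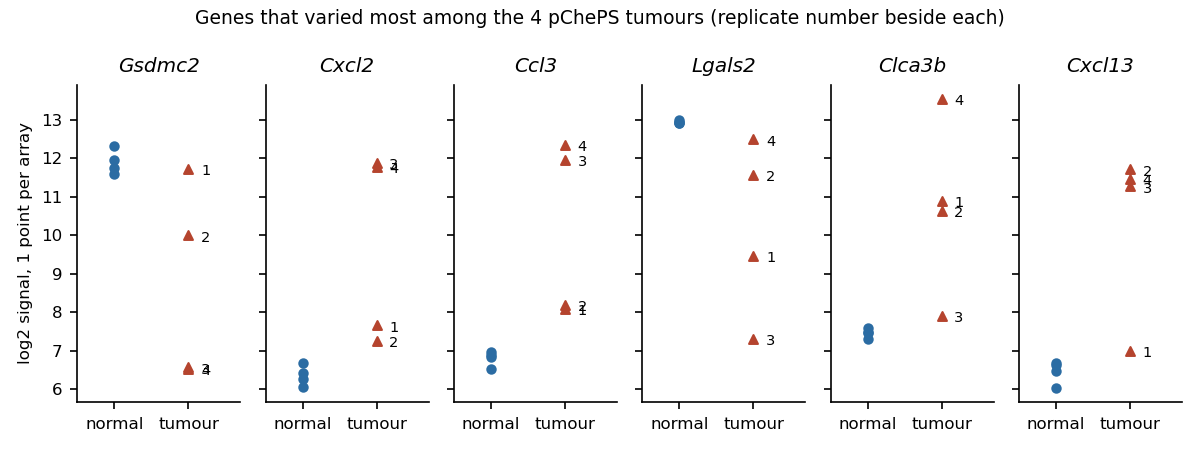
Log2 signal (y axis) of the 6 passing genes with the largest SD among pChePS tumours, 1 point per array, with blue circles for the 4 NGE arrays and red triangles for the tumours, numbered by replicate. Tumours 3 and 4 are high for Cxcl2 and Ccl3, at 11.78 to 12.35, and tumour 1 is low for Cxcl13, at 7.0.

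Set directly beside the 3 pCP_GC tumours, 73 autosomal genes (0.382%) differed from the pChePS tumours. Of the 1992 genes that had changed at least 2-fold against NGE, 24 (1.20%) were among them. Of these, 21 lay farther from NGE in the pChePS tumours (12 higher and 9 lower). Both comparisons use the same pChePS arrays, so selection by the change against NGE favours that direction. This count therefore adds no support. Mmp7 differed by 3.62 between the tumour groups (limma adjusted p = 0.0144), Cd14, the endotoxin co-receptor, by 1.24 (0.00484), Trf by 1.55 (0.0180) and Arg1 by 1.81 (0.0288). Glp1r, the GLP-1 receptor, had a difference of -3.66 (0.0188), Fabp2 of -1.82 (0.0317), and Abi3bp, a matrix protein, of -2.41 (0.0180) although it rose against NGE; Mmp7, Arg1, Trf and Fabp2 are named by rule and the others were chosen after their values were seen. These calls rest on the spread estimated over all 11 arrays: with only the 2 tumour groups fitted, none of the 19103 genes passed in limma, with 2447 at an unadjusted p under 0.05.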

How the data were processed

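Total RNA was labelled with biotin and hybridised to 1 Affymetrix array per sample, per the labels' protocols. The authors deposited normalized log2 signals, 1 value for each probe set on each array; the unit was read from the values, which span 2.88 to 14.56. Per the submitters' processing notes the software was Affymetrix Expression Console, whose algorithm and version were not given in the sources used here. Of 35556 probe sets 21789 name 1 gene, 1621 several and 12146 none. A linear model over all 11 arrays was fitted with limma 3.58.1 in R 4.3.3 (lmFit, eBayes), after a test on simulated data. Genes were named by rule: the 15 largest rises and falls with groups that do not overlap (no predicted or non-coding models or antigen receptor segments), up to 4 per list, up to 3 per symbol family, the 6 with the widest spread among tumours, floxed genes and cell type markers, and other list members where needed (12 genes). The miRNA genes, Fabp5, Smad3 and Smad5 were chosen after their values were seen, as were the genes so marked in the text (18 in all). The lists and members were chosen with earlier results of these data known. Alternatives changed the groups fitted, the variance prior, scaling, dim-gene filters, probe set summary, array weights, replicate block and threshold, and left out each array. Medians of the arrays lay between 7.63 and 7.81. Promoter and miRNA sequences come from RefSeq tables.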

Additional observations from a re-analysis of the deposited data

Results flagged for a closer look

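In a group of 4 arrays, a single array was marked when its gap to the nearest other array exceeded Dixon's 95% critical value. This was run on the 36 genes with the largest changes or the widest spread among tumours, in NGE and in the pChePS tumours, and chance marks about 1 group in 20; 4 of 72 groups were marked. Gsdma2 in pChePS tumour 2 read 9.03, against 5.87 to 6.02 in the other tumours. Atp4b, a proton pump subunit, also stood apart in tumour 2, at 8.46, against 7.50 to 7.54. Cxcl13 read 7.0 in tumour 1, against 11.28 to 11.72. Mmp7 read 7.22 in NGE array 2, against 7.31 to 7.33, a gap that is small beside its rise in the tumours. Mmp7 was also higher in the pChePS than in the pCP_GC tumours by 3.62 (limma adjusted p = 0.0144), so its differences from NGE differed between the tumour groups.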

How the results depend on the processing

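Lists of 4 or more calls kept within 1.5 times their count under every alternative in 45 of 60 cases, and 284 of the 310 named genes that passed, the 30 largest changes among them, passed under every alternative that gave a value, with no reversal; so did all 28 passing genes among the 30 named in addition. With an adjusted p under 0.01, 2305 genes were higher and 1970 lower in the pChePS tumours than in NGE. Centring each array gave 8681 lower genes and leaving out the dimmest 50% of genes 1824. Leaving out single arrays gave 2851 to 3771 higher and 3001 to 4970 lower genes, with 1236 to 1451 and 621 to 677 at least 2-fold. Between the tumour groups 73 genes passed, but 0 with only the 2 groups fitted, 0 with the replicate block, 31 without the dimmest 50%, 184 with array weights, 12 at an adjusted p under 0.01 and 26 to 151 without single arrays; at an unadjusted p under 0.05 there were 3179 in the fit reported, 2447 with 2 groups and 3150 with the block. The cause was not tested, except that a stricter threshold gives fewer calls by construction. With the replicate block 3535 genes were higher and 4722 lower in the comparison with NGE (1343 and 643 at least 2-fold). Deviations of same-numbered arrays from their group means correlated weakly (r = -0.15, 0.10, 0.16 and 0.04 for numbers 1 to 4). Arrays 2 and 3 of the pChePS tumours, but not 1 and 4, correlated best with the NGE array of their own number. Since the groups are different tissues, these values cannot show whether the numbers pair the samples. Signal near background limits the dim genes, and precision is limited by how few arrays there are.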

Other observations

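Genes of gastric juice and pancreas-type digestion were measured as well. Of 14 such genes 10 fell and none rose, with a median difference of -0.74, and without the dimmest 50% of genes 6 fell. Cblif, the gastric intrinsic factor that carries vitamin B12, read 12.38, 13.31, 13.23 and 12.41 in NGE and 7.63, 9.26, 7.92 and 8.56 in the tumours. Its groups did not overlap, and it fell by 4.49 (SE 0.61, limma adjusted p = 0.000268). Pga5, a pepsinogen (-3.46), and Pnliprp2, a pancreatic lipase relative (-3.20), fell too. All 5 chief cell markers fell, Lipf from under the receptor level, their mean level being 10.23 to 10.73 in NGE and 7.09 to 8.16 in the tumours. The part of these markers was not tested. Clps, the colipase of pancreatic lipase and a marker of acinar cells, read 14.01 to 14.25 in NGE and 9.75 to 10.51 in the tumours. In all, 2 of 6 acinar markers fell and none rose. The other fall, Ptf1a (-0.41), lay under the receptor level in both groups and did not pass after quantile normalization (limma adjusted p = 0.0969). Ctrb1 and Cpa1 did not pass but stood high in tumour 1. Ctrb1 read 7.65 to 7.90 in NGE and 11.59, 7.59, 8.71 and 7.89 in the tumours. Cpa1 read 7.30 to 7.45 in NGE and 9.71, 7.02, 7.86 and 7.33 in the tumours. Mast cell markers (6 measured) and adipocyte markers (5 measured) did not pass in either direction. Intestinal epithelium markers rose in 3 of 6 cases (Vil1, Cdx2 and Lgals4) and fell in 1 (Fabp2). Of these, Vil1 and Cdx2 did not pass in limma under some alternatives (adjusted p up to 0.0653 and 0.131). Squamous epithelium markers passed upwards in 2 of 6 cases (Krt4 and Ivl), with a mean level of 7.39 to 7.98 in NGE and 7.61 to 9.21 in the tumours. Krt4, whose groups overlap (limma adjusted p = 0.0472), and Ivl (0.0410) did not pass when any 1 of the NGE arrays or pChePS replicate 1 or 2 was left out (adjusted p up to 0.114 and 0.110). Krt4 also did not pass with only the 2 groups fitted, with a trend and robust prior or when any 1 of the pCP_GC arrays was left out, and Ivl not after quantile normalization or with the replicate block.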
